A study of Mus musculus with 27 samples.

Results

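Deletion of a short proline-rich stretch from the C-terminal part of NFIA was compared with full-length NFIA in C2C12 cells at day 7 of adipocyte differentiation. The comparison took 6 of the 27 samples of the study, 3 of cells with the deletion mutant Δpro#3 and 3 of cells with full-length NFIA, all without forskolin, and all genes of these samples. C2C12 is a mouse cell line of myoblasts, which fuse into muscle fibers when left to differentiate. The study sequenced polyadenylated RNA of these cells and of control cells before differentiation (day 0), on day 7, and on day 7 with forskolin. Both constructs were introduced with the pMXs retroviral vector. By the labels of these C2C12 samples, differentiation was started with isobutylmethylxanthine, indomethacin, dexamethasone, insulin, T3 and rosiglitazone in 10% serum, and continued with insulin, T3 and rosiglitazone in serum. RNA was taken from whole cultures, so the levels are averages over cells that may differ in the amount of construct. Nothing in the labels said that the 3 replicates of a group came from separate infections or cultures, so the p-values measure the spread between these samples, which may be technical.

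NFIA is a transcription factor of the nuclear factor I family. Adipocyte differentiation is driven by PPARγ and C/EBPα, which raise each other's expression and bind together near the genes of lipid storage and metabolism. Muscle differentiation is driven by the basic helix-loop-helix factors MyoD, Myf5, myogenin and Myf6, which bind E-boxes and act with MEF2 factors on the genes of the sarcomere. Rosiglitazone is a ligand of PPARγ, so all groups at day 7 had received a drug that acts on this receptor.

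Expression was given as FPKM, the number of fragments of a gene divided by its transcript length and by the depth of the sample. Differences are log2 differences of FPKM + 1 with their standard error, mutant minus full-length NFIA unless stated otherwise, and changes of weakly expressed genes are understated on this scale. Adjusted p-values are those of limma with Benjamini-Hochberg adjustment over all 12324 genes tested. Genes were called when the adjusted p-value was under 0.05 and FPKM + 1 changed over 3-fold. For list members, rose and fell are used of called genes. The 6 samples held 9567769 to 21941908 fragments.

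The cells' own Nfia gene is on chromosome 4 (97439425 to 97868605, plus strand, NCBIM37), and the values below include fragments of the introduced copy. Nfia was measured at 457, 528 and 459.6 FPKM with full-length NFIA and at 480.5, 383 and 374 FPKM with the mutant, in replicates 1 to 3. The ranges of the groups overlapped, and control cells held 0.0885 to 0.253 FPKM. The means were 482 ± 40.1 and 413 ± 58.9 FPKM (SD, n = 3), and the exact permutation test gave p = 0.3 where 0.1 was the smallest p possible. The value counts fragments over the whole gene and cannot tell the deleted form from the full-length one. It is divided by a length of 9643 bases, which need not be that of the introduced copy. Without mutant replicate 1, limma gave an adjusted p = 0.0053 for Nfia, with a difference of -0.34, against 0.0751 with all samples.

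Replicate 1 of the mutant stood apart from the other 2 mutant samples. Counting noise was exceeded 13.6-fold and 13.3-fold between replicate 1 and the others (chi-square per gene), and 5.66-fold between replicates 2 and 3, while the 3 pairs of full-length samples gave 3.03 to 5.90. In replicate 1, 55 genes were more than 2-fold above the other mutant samples and 52 were more than 2-fold below them. Of the 66 adipocyte genes called lower in the mutant, 58 were highest in replicate 1 among the mutant samples, by a median of 0.48 on the log2 scale, whereas the 99 muscle genes called higher differed by a median of 0.02. Where the number of called list members changed without replicate 1, it is given below, as are the log2 differences of Cidec, Fabp4, Adipoq and Cfd, the adipocyte genes described that it moved most.

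Between the mutant and full-length NFIA at day 7, 320 genes were called higher with the mutant (2.60% of the genes tested) and 456 lower (3.70%). At an adjusted p-value under 0.05 alone, 4233 genes were higher (34.3%) and 3621 lower (29.4%), and 4470 did not pass. With median-ratio scaling between samples, these counts were 3881 and 3950, so that which direction held more genes depended on the scaling. The 3 mutant values lay above the 3 full-length values in 4479 genes (36.3%) and below them in 3853 (31.3%), and all 776 called genes were among these, which the thresholds make likely. Counted on FPKM + 1, which holds down the folds of genes that are low in either group, 127 genes fell and 43 rose by more than 8-fold, and 18 fell and none rose by more than 32-fold. Without mutant replicate 1, 323 genes were called higher and 478 lower.

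The called genes took up a large share of the RNA. Genes called lower held 12.9% to 13.8% of the fragments of the full-length samples, 1.71% to 2.36% of those of the mutant samples and 1.59% to 1.61% of those of control cells. Genes called higher held 1.94% to 2.28% with full-length NFIA, 11.8% to 12.1% with the mutant and 11.2% to 12.7% in control cells. In both directions the mutant samples lay by the control samples. Their distance from the full-length samples was set by the selection, because the genes were called for that difference. The control values are given beside the comparison throughout as levels only, because the samples of full-length NFIA and of the mutant enter both comparisons. In such mixed populations, fewer cells of a type and less RNA per cell cannot be told apart.

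**Figure D1:**
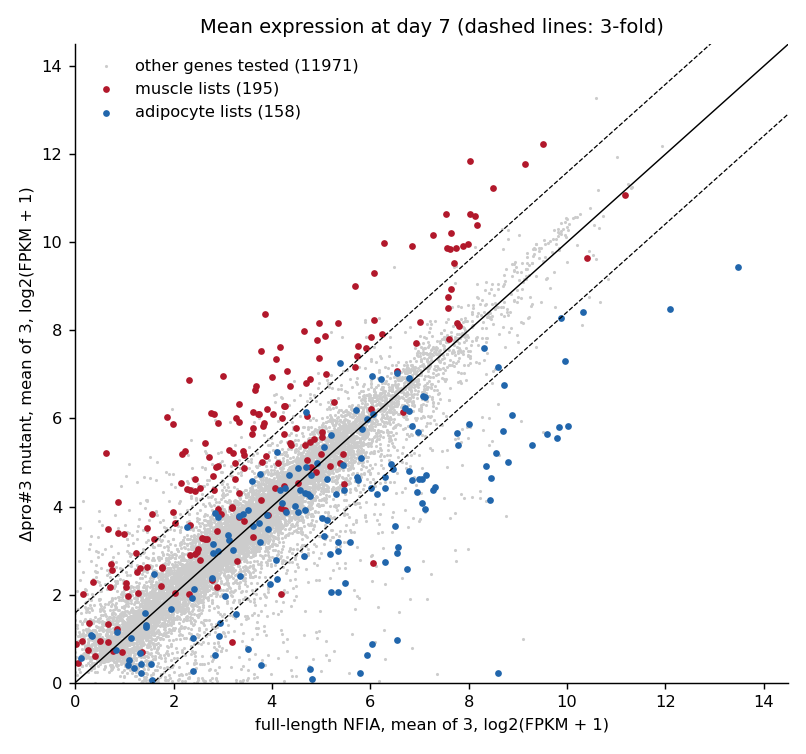
Mean expression of the 12324 tested genes at day 7 with full-length NFIA (horizontal axis) and with the Δpro#3 mutant (vertical axis), both as log2(FPKM + 1) over 3 samples, with 195 genes of the muscle lists in red, 158 of the adipocyte lists in blue and the others in gray. Dashed lines mark a 3-fold difference, and most red points lie above the diagonal while many blue points lie far below it.

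The 8 largest falls were those of Rbp4, Cyp2e1, Slurp1, Bcan, Ephx2, Snhg11, Lcn2 and Ces1f. Rbp4, the serum carrier of retinol, is on chromosome 19 (38191110 to 38199811, minus strand, NCBIM37). It stood at 366, 418 and 374 FPKM with full-length NFIA and at 0.273, 0.105 and 0.131 FPKM with the mutant. The groups were far apart, and the difference was -8.37 ± 0.0794 (adjusted p = 2.37e-12). Cyp2e1, a cytochrome P450 on chromosome 7 (147949638 to 147960874, plus strand), stood at 500.2, 643 and 509 FPKM with full-length NFIA and at 1.88, 0.236 and 0.813 FPKM with the mutant. It fell by 8.20 ± 0.244 on the log2 scale (adjusted p = 2.18e-09), and mutant replicate 1 was the highest of the mutant samples.

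The other falls of this size were as far from overlap. Slurp1, a small secreted protein, stood at 158 to 170.4 FPKM with full-length NFIA and at 0.0868 to 0.215 FPKM with the mutant. Bcan, the proteoglycan brevican, stood at 68.4 to 76.3 FPKM against 0.012 to 0.0464 FPKM. Neither is a gene of the adipocyte lists. Ephx2, soluble epoxide hydrolase, stood at 109.7 to 119.9 FPKM against 0.48 to 1.13 FPKM, and at 2.64 to 3.24 FPKM in control cells, so its mutant samples were the lowest of the 3 groups. The non-coding host gene Snhg11 fell by 5.76, Lcn2, the siderophore-binding lipocalin, by 5.64, and the carboxylesterase Ces1f by 5.57 on the log2 scale, with adjusted p of 1.31e-08 or less. Ces1f and its neighbor Ces1d (26.5 ± 0.975 against 0.242 ± 0.156 FPKM) belong to a family of similar genes, so how uniquely aligned fragments divide between them is uncertain.

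The 8 largest rises were those of Myf6, Ckmt2, Smpx, Art1, Pvalb, Mybpc1, Ppp1r27 and Myot, of which 6 are in the muscle lists and Art1 and Ppp1r27 are in none. Myf6, the myogenic factor known as MRF4, is on chromosome 10 (106929916 to 106931785, minus strand). It stood at 0.502, 0.428 and 0.701 FPKM with full-length NFIA and at 35.3, 34.9 and 37.7 FPKM with the mutant. The 3 mutant samples were close to each other, above all full-length samples and below the 109.7 to 156 FPKM of control cells. The difference was 4.58 ± 0.122 (adjusted p = 1.11e-09). Ckmt2, the mitochondrial creatine kinase of sarcomeric muscle, on chromosome 13 (91992992 to 92016490, minus strand), stood at 3.09, 4.77 and 4.12 FPKM against 120.2, 118 and 112 FPKM, a difference of 4.57 ± 0.128 (adjusted p = 1.48e-09). Here the mutant samples lay above control cells too, which held 32 to 41.8 FPKM. Art1, an ADP-ribosyltransferase of the muscle surface, stood at 2.80 to 3.19 FPKM with full-length NFIA, 65.4 to 78.5 FPKM with the mutant and 13.4 to 15.6 FPKM in control cells. Smpx, a small protein of the costamere, rose by 4.51 and Pvalb, the calcium buffer parvalbumin, by 4.18 on the log2 scale, and Myot, the Z-disc protein myotilin, by 3.88.

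Most called genes were in none of the gene lists, which held 124 of the 320 genes called higher and 106 of the 456 called lower. Lists of adipocyte genes (7) and of muscle genes (8) held most of the called genes that were in any list. Of 158 adipocyte genes tested, 66 were called lower and 1 higher, with a median difference of -1.10, against 0.03 over all genes tested. Summed over the adipocyte lists, expression was 32603 to 35066 FPKM with full-length NFIA, 4847 to 7400 FPKM with the mutant and 3830 to 3934 FPKM in control cells. Of 195 muscle genes tested, 99 were called higher and 3 lower, with a median of 1.67. Their sums were 11504 to 13323 FPKM with full-length NFIA, 44658 to 46436 FPKM with the mutant and 42798 to 50121 FPKM in control cells. Without mutant replicate 1, the counts were 65 adipocyte genes lower and none higher, and 98 muscle genes higher and 3 lower.

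**Figure D2:**
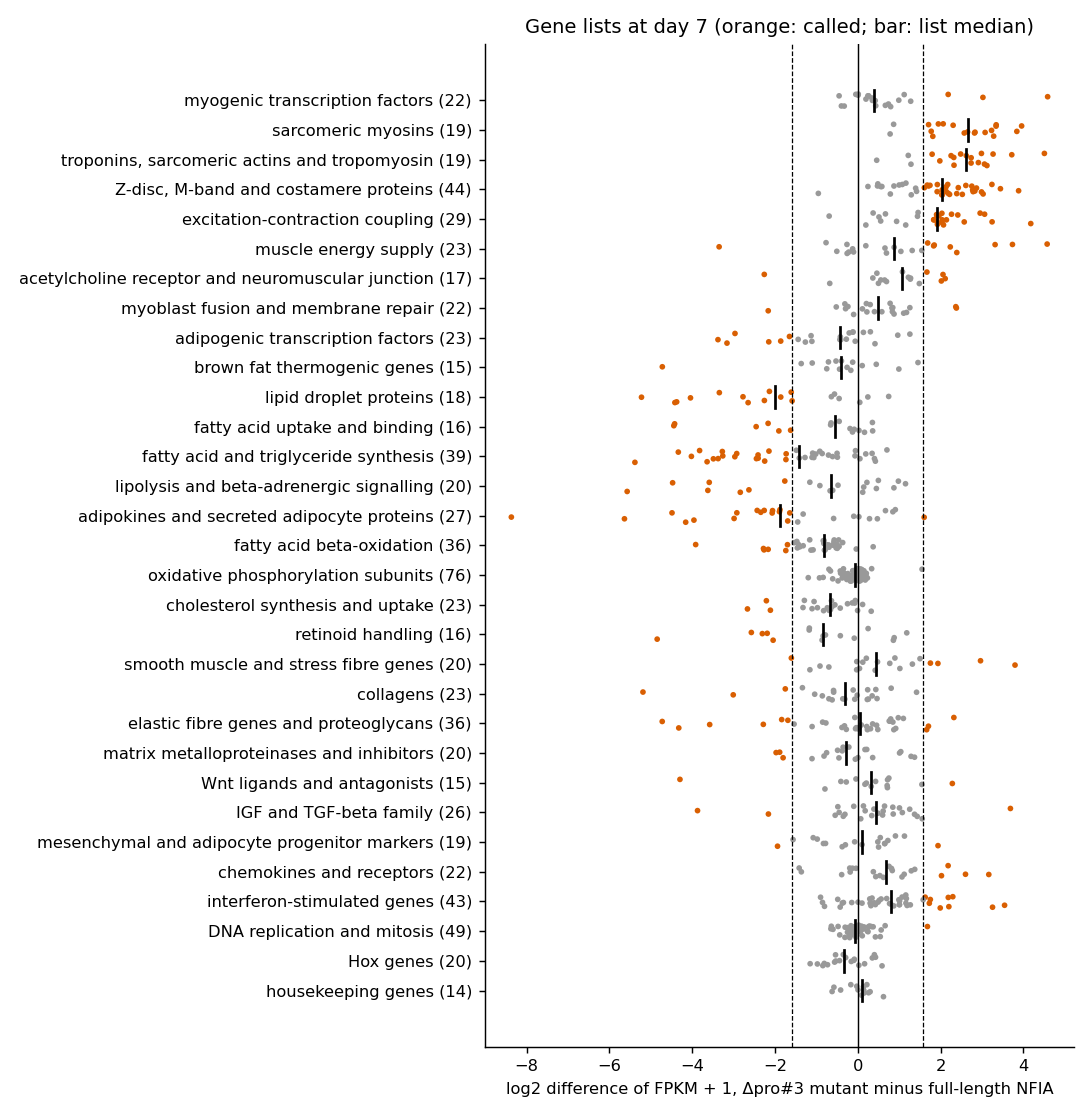
Log2 difference of FPKM + 1 between the mutant and full-length NFIA at day 7 (horizontal axis) for the tested members of each gene list (number in brackets), 1 point per gene, with called genes in orange, a black bar at the list median and dashed lines at a 3-fold difference. The lists of sarcomeric genes lie to the right with medians from 2.04 to 2.65, those of lipid droplet and secreted adipocyte proteins lie to the left, and the subunits of oxidative phosphorylation lie around -0.07.

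Among the transcription factors of adipogenesis, 6 of 23 tested were called lower and none higher, with a median of -0.42. At an adjusted p-value under 0.05 alone, 14 were lower and 4 higher, and without mutant replicate 1, 5 were called lower. Pparg, which encodes PPARγ (chromosome 6, 115311239 to 115440419, plus strand), stood at 40.4, 40.4 and 37.8 FPKM with full-length NFIA and at 8.56, 7.91 and 7.88 FPKM with the mutant. The groups did not overlap, the difference was -2.15 ± 0.0752 (adjusted p = 5.54e-09), and control cells held 5.32 to 6.68 FPKM. Cebpa, which encodes C/EBPα, stood at 91.1, 91.3 and 84.7 FPKM against 14, 10.8 and 7.59 FPKM, a fall of 2.97 ± 0.157 on the log2 scale (adjusted p = 8.7e-08). Srebf1, a regulator of fatty acid synthesis, fell from 136 ± 2.28 to 14.4 ± 1.61 FPKM (SD, n = 3), and Nr1h3, which encodes the oxysterol receptor LXRα, stood at 38.7 to 41.1 FPKM against 5.56, 1.93 and 2.11 FPKM. Zfp423, a zinc finger protein of preadipocytes, did not pass the 3-fold threshold at 1.81 to 2.07 FPKM against 0.237 to 0.443 FPKM, a log2 difference of -1.11 that its low FPKM holds down.

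Lipid droplet proteins had the lowest median of the adipocyte lists, -2.00, with 12 of 18 called lower and none higher (15 and 1 at an adjusted p-value under 0.05 alone). Cidec, which fuses droplets in white fat (chromosome 6, 113374628 to 113385754, minus strand), stood at 744, 783 and 770.0 FPKM with full-length NFIA and at 105, 18.7 and 23.1 FPKM with the mutant. Replicate 1 was several times above the other mutant samples and still far below every full-length sample. Cidec fell by 4.38 ± 0.496 (adjusted p = 2.78e-05), and without mutant replicate 1 by 5.14 (adjusted p = 1.4e-09). Plin1, the perilipin that coats droplets, stood at 325 to 368 FPKM against 28.7, 11.8 and 9.93 FPKM, and control cells held 2.64 to 2.98 FPKM. Pnpla3, a lipid droplet hydrolase, stood at 61.6 to 68.9 FPKM against 1.81, 0.353 and 0.401 FPKM, again highest in mutant replicate 1.

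Fatty acid uptake and binding genes were called lower in 6 of 16 cases, and fatty acid and triglyceride synthesis genes in 18 of 39 (median -1.41), and none of either list was called higher. Without the 3-fold threshold, 10 of the former were lower and 2 higher, and 31 of the latter were lower and 4 higher. Fabp4, the fatty acid binding protein of adipocytes (chromosome 3, 10204347 to 10208576, minus strand), stood at 11235, 12147 and 10778 FPKM with full-length NFIA and at 1415, 294 and 354 FPKM with the mutant. Mutant replicate 1 was again the highest of its group, and no mutant sample reached a full-length sample. The difference of Fabp4 was -4.43 ± 0.459 (adjusted p = 1.43e-05), or -5.14 without mutant replicate 1. Scd1, which makes monounsaturated fatty acids, stood at 4164, 4732 and 4280.2 FPKM against 475, 282 and 321 FPKM, a fall of 3.64 ± 0.158 (adjusted p = 2.19e-08). Fasn, fatty acid synthase, fell from 324 ± 8.29 to 29.1 ± 10.9 FPKM (SD, n = 3). Gpd1, which makes glycerol phosphate, stood at 865 to 919.7 FPKM against 70.6, 32.6 and 34.3 FPKM, and Agpat2, an acyltransferase of triglyceride synthesis, at 618 to 632 FPKM against 66.7, 27.8 and 28.2 FPKM, both highest in mutant replicate 1 within their group. Pck1, the enzyme of glyceroneogenesis, stood at 57.6 to 62.4 FPKM against 0.139 to 1.28 FPKM. Lpl, lipoprotein lipase, fell less, from 946 ± 42.9 to 309 ± 56.4 FPKM, a difference of -1.62 ± 0.116 (adjusted p = 8.54e-07) that came to -1.50 and missed the 3-fold threshold without mutant replicate 2.

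Of 20 tested genes of lipolysis and β-adrenergic signaling, 7 were called lower and none higher, while 12 were lower and 7 higher at an adjusted p-value under 0.05 alone. Lipe, hormone-sensitive lipase, stood at 92.4 to 95.4 FPKM against 12.5, 4.94 and 5.13 FPKM, and Mgll, monoglyceride lipase, at 74.0 to 80.8 FPKM against 8.77, 4.07 and 4.27 FPKM. Adrb3, the β3-adrenergic receptor, was low in both groups, at 1.25 to 1.88 FPKM and 0.182 to 0.633 FPKM, and was not called. Among adipokines and secreted proteins, 16 of 27 were called lower and 1 higher (19 and 5 at an adjusted p-value under 0.05 alone). Adipoq, which encodes adiponectin, stood at 423, 467 and 443 FPKM against 65.6, 13.1 and 15.4 FPKM. The groups did not overlap, mutant replicate 1 was the highest of the mutant samples, and the difference was -4.16 ± 0.466 (adjusted p = 2.54e-05), or -4.87 without it. Cfd, the complement factor adipsin, stood at 101 to 113 FPKM against 10.8, 1.88 and 2.27 FPKM, a difference of -4.49, or -5.14 without mutant replicate 1. The exception was Hp, haptoglobin, at 39.2 to 44.6 FPKM with full-length NFIA and 286, 87.0 and 81.0 FPKM with the mutant. Its difference was 1.60 ± 0.45. Without mutant replicate 1 it was 1.02 (limma, adjusted p = 0.0136), still higher with the mutant but below the 3-fold threshold.

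**Figure D3:**
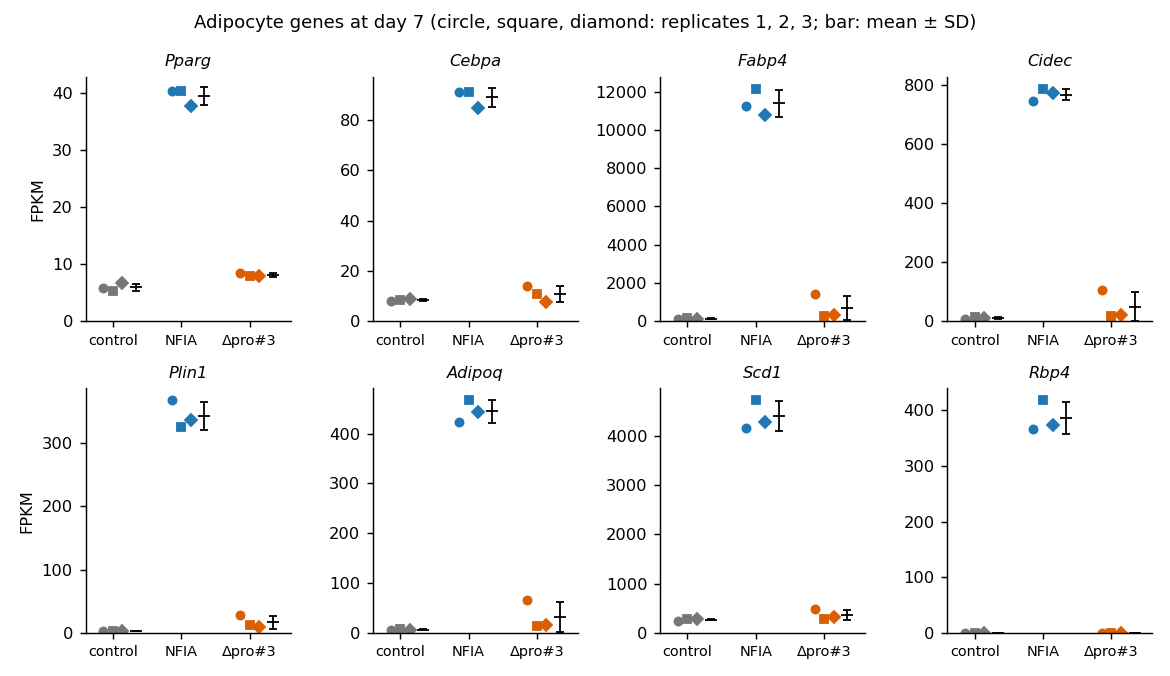
FPKM (vertical axes) of 8 adipocyte genes in each of the 9 samples at day 7 (control cells, cells with full-length NFIA, cells with the Δpro#3 mutant), with circles, squares and diamonds for replicates 1, 2 and 3 and a bar for the mean ± SD. The full-length samples stand above all others in each panel, and in the mutant Cidec and Fabp4 reach 105 and 1415 FPKM in replicate 1.

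Of the genes of fatty acid β-oxidation, 6 of 36 were called lower and none higher, while 34 were lower at an adjusted p-value under 0.05 alone, with a median of -0.81. The number called lower was 8 without mutant replicate 1. Acadm, the medium-chain acyl-CoA dehydrogenase, fell from 387 ± 24.7 to 79.4 ± 11.1 FPKM, and Pex11a, a protein of peroxisome division, from 29.3 ± 0.922 to 5.33 ± 0.681 FPKM. None of 76 subunits of oxidative phosphorylation was called, with a median of -0.07, and 31 were lower and 7 higher at an adjusted p-value under 0.05 alone. Cox4i1, a subunit of cytochrome c oxidase, stood at 746 to 818 FPKM against 560.0 to 603 FPKM. Of the brown fat genes, 1 of 15 tested was called lower and none higher, with a median of -0.40, and 8 were lower and 3 higher at an adjusted p-value under 0.05 alone. Cidea stood at 24.9 to 31.2 FPKM with full-length NFIA and at 0 to 0.152 FPKM with the mutant, a fall of 4.72 ± 0.0984 (adjusted p = 2.69e-10). Ppargc1a, the coactivator of mitochondrial biogenesis, stood at 4.16 to 4.30 FPKM against 0.926 to 1.09 FPKM, with a log2 difference of -1.37 that missed the threshold. Ucp1 had no fragment in any sample of the groups at day 7, and Cpt1b, at 0.0195 to 0.242 FPKM, was too low to be tested.

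In cholesterol synthesis and uptake, 3 of 23 were called lower and none higher (17 and 1 without the 3-fold threshold), namely Insig1, which retains the sterol sensor, and the synthesis enzymes Pmvk and Lss. Insig1 fell from 188 ± 6.74 to 28.8 ± 3.56 FPKM. Of 16 retinoid genes, 5 were called lower and none higher (11 and 4 without the 3-fold threshold). Adh1, an alcohol dehydrogenase that oxidizes retinol, stood at 206, 217 and 209.8 FPKM with full-length NFIA and at 12.5, 4.43 and 4.44 FPKM with the mutant. Control cells lay between, at 43.2 to 47.0 FPKM, so the mutant samples held the least of the 3 groups. Dhrs3, which returns retinal to retinol, had the same order, with 20.9 ± 1.24 FPKM for full-length NFIA, 2.69 ± 0.435 FPKM for the mutant and 8.62 ± 0.200 FPKM for control cells.

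Myogenic transcription factors were called higher in 3 of 22 cases, namely Myf6, Myf5 and Mef2c, and none was called lower (median 0.39), while 14 were higher and 3 lower at an adjusted p-value under 0.05 alone. Myf5 stood at 4.16, 3.01 and 4.03 FPKM with full-length NFIA and at 34.2, 38.1 and 39.6 FPKM with the mutant. Both groups were tight, the mutant samples were above the 24.6 to 29.0 FPKM of control cells, and the difference was 3.02 ± 0.104 (adjusted p = 4.92e-09). Mef2c stood at 4.18 to 4.65 FPKM against 22 to 26.1 FPKM. Myod1, the gene of MyoD, stood at 29.5, 18.3 and 25.9 FPKM against 33.9, 50.2 and 40.2 FPKM, and at 67.2 to 81.0 FPKM in control cells. Its difference of 0.74 ± 0.174 (adjusted p = 0.00385) was under 3-fold. Myog, the gene of myogenin, stood at 248, 159 and 192 FPKM against 349, 584 and 533 FPKM, a difference of 1.28 ± 0.195 (adjusted p = 0.000235), and at 1198 to 1374 FPKM in control cells. For Myod1 and Myog the mutant samples thus lay between the other groups, and replicate 1 was the lowest of them.

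The sarcomere showed the most uniform change. In the list of sarcomeric myosins, 17 of 19 tested genes were called higher (median 2.65). In that of troponins, sarcomeric actins and tropomyosin, 16 of 19 were (median 2.62), and none of either was called lower. The lists were wider than their names, as the former held Mybpc1 and the latter Smpx and Lmod2. All 19 tested members of each list were higher at an adjusted p-value under 0.05. Myl1, the alkali light chain of fast fibers (chromosome 1, 66970869 to 66991978, minus strand), stood at 296, 226 and 254 FPKM with full-length NFIA and at 3934, 3682 and 3477 FPKM with the mutant. The mutant values fell among the 3456 to 4419 FPKM of control cells, and the difference was 3.84 ± 0.117 (adjusted p = 2.5e-09). Acta1, skeletal α-actin (chromosome 8, 126415669 to 126418651, minus strand), stood at 837, 653 and 692 FPKM against 5099, 4682 and 4715 FPKM, a difference of 2.74 ± 0.103 (adjusted p = 8.83e-09). Its mutant samples were above control cells, at 2582 to 3066 FPKM. Of the developmental myosins, embryonic Myh3 stood at 105, 53.0 and 66.4 FPKM against 195, 269 and 254 FPKM, a difference of 1.71 ± 0.212 that was 1.49 and under 3-fold without full-length replicate 2. Perinatal Myh8 stood at 20.6 to 29.9 FPKM against 229 to 280.2 FPKM. The adult myosin Myh2, of fast oxidative fibers, stood at 4.85 to 7.25 FPKM against 56.8 to 88.3 FPKM, above the 18.4 to 24.1 FPKM of control cells. Tnnt1, the troponin T of slow fibers, rose from 76.1 ± 13.8 to 1013 ± 166 FPKM, and Tnnt3, that of fast fibers, from 187 ± 28.5 to 931 ± 71.5 FPKM (SD, n = 3).

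Of 44 Z-disc, M-band and costamere genes, 30 were called higher and none lower (42 and 1 without the 3-fold threshold), and without mutant replicate 1 the number higher was 29. Ttn, the giant spring protein titin, rose from 7.70 ± 0.80 to 38.1 ± 1.09 FPKM, and Des, the intermediate filament desmin, from 235 ± 29.0 to 959 ± 69.4 FPKM. Ankrd2 and Pdlim3, of the Z-disc region, rose by 3.44 and 3.24 on the log2 scale. Of 29 genes of excitation-contraction coupling, 19 were called higher and none lower (27 and 1 without the 3-fold threshold). Atp2a1, the calcium pump of the sarcoplasmic reticulum in fast fibers, stood at 79.0, 56.2 and 64.2 FPKM against 654, 621 and 619.6 FPKM, and at 574 to 668 FPKM in control cells. Sln, sarcolipin, which binds that pump, stood at 4.82, 13.4 and 9.09 FPKM with full-length NFIA and at 101, 75.6 and 62.3 FPKM with the mutant, with control cells lowest at 0.252 to 1.15 FPKM. Pvalb stood at 1.90, 3.30 and 2.77 FPKM against 58.0, 64.1 and 71.6 FPKM.

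**Figure D4:**
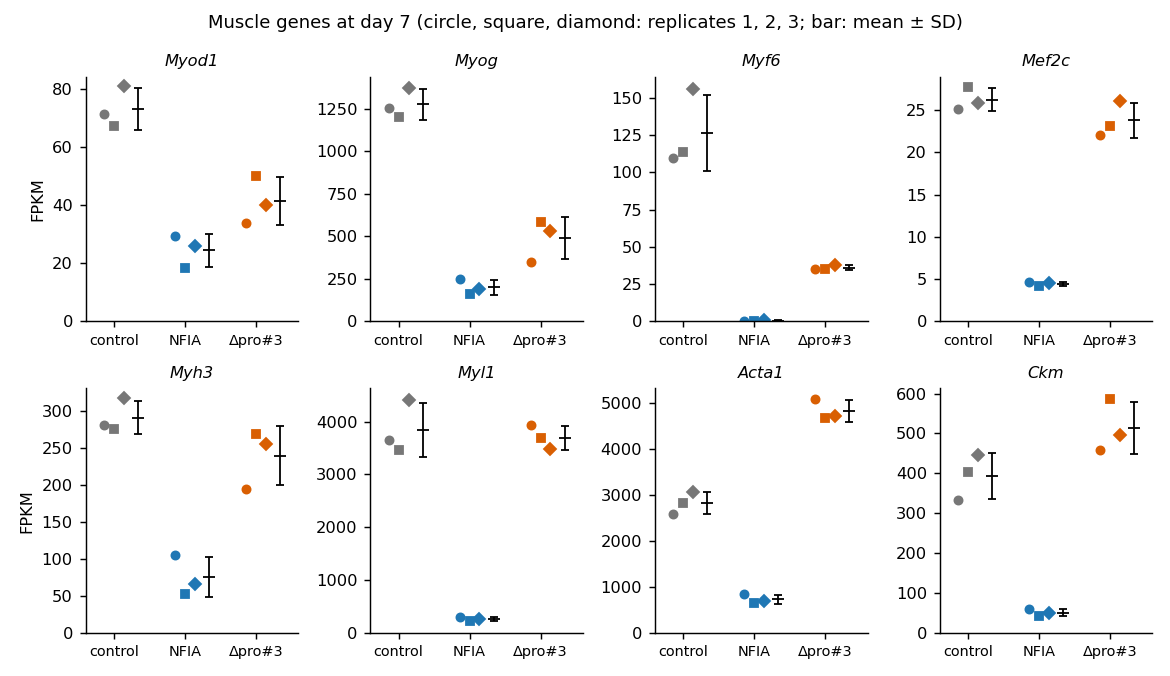
FPKM (vertical axes) of 8 muscle genes in each of the 9 samples at day 7 (control cells, cells with full-length NFIA, cells with the Δpro#3 mutant), with circles, squares and diamonds for replicates 1, 2 and 3 and a bar for the mean ± SD. The mutant samples lie above all full-length samples for each gene, between those and control cells for Myod1, Myog and Myf6, and among or above control cells for Myl1 and Acta1.

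In the muscle energy list, 8 of 23 were called higher and 1 lower (14 and 4 without the 3-fold threshold). Ckm, the muscle creatine kinase, stood at 59.4, 43.1 and 50.1 FPKM with full-length NFIA and at 459, 585 and 496 FPKM with the mutant, a difference of 3.32 ± 0.138 (adjusted p = 1.73e-08). Pgam2, the glycolytic phosphoglycerate mutase of muscle, stood at 12.6 to 13 FPKM against 170.0 to 203 FPKM. The gene called lower was Ppp1r3c, a subunit that targets protein phosphatase to glycogen, at 60.8 to 72.8 FPKM against 4.20 to 6.75 FPKM, with control cells between at 11.6 to 15.6 FPKM. At the neuromuscular junction, 4 of 17 genes were called higher and 1 lower (15 and 2). Chrng and Chrnd, the fetal γ and the δ subunit of the acetylcholine receptor, and Musk, the kinase that clusters it, rose by 2.11, 2.06 and 2.02 on the log2 scale, whereas Colq, the collagen tail of acetylcholinesterase, fell from 8.17 ± 0.464 to 0.914 ± 0.0819 FPKM. Of 22 genes of fusion and membrane repair, 2 were called higher (Npnt and Trim72) and 1 lower (Adam12), and 15 were higher and 5 lower at an adjusted p-value under 0.05 alone. Mymk, the fusion protein myomaker, was not called at 89.2 to 145 FPKM against 184 to 228 FPKM. The same held for Cdh15, the cadherin of myoblasts, at 33.2 to 44.3 FPKM against 77.5 to 85.5 FPKM. Smooth muscle and stress fiber genes were called higher in 4 of 20 cases and lower in 1 (11 and 4 at an adjusted p-value under 0.05 alone). Ctgf, a matrix-associated growth factor of this list, stood at 11.8 to 14.5 FPKM with full-length NFIA and 184 to 198 FPKM with the mutant, above the 67.3 to 67.8 FPKM of control cells. Tagln overlapped between the groups, at 60.7 to 82.6 FPKM and 62.8 to 86.4 FPKM.

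The 250 bases before the start of 5 of these genes are shown because they hold elements of the factors described above, with the elements in capitals. A CArG box, an element of serum response factor, is marked in Acta1 too. They are from RefSeq on GRCm38.p6, a later build than that of the files, and were matched by gene symbol, with the first listed start of each gene.
Myl1, chr1:66945057-66945306, minus strand: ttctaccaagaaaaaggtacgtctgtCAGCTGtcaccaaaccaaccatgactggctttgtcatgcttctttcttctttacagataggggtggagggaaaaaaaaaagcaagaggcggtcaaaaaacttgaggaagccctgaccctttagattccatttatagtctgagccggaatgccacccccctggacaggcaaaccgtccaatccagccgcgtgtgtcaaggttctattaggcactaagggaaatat
Acta1, chr8:123894776-123895025, minus strand: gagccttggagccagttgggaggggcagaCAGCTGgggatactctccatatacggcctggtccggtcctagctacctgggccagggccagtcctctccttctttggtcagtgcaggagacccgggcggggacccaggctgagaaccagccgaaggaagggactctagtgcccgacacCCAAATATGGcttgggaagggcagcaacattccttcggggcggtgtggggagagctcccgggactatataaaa
Pgam2, chr11:5803797-5804046, minus strand: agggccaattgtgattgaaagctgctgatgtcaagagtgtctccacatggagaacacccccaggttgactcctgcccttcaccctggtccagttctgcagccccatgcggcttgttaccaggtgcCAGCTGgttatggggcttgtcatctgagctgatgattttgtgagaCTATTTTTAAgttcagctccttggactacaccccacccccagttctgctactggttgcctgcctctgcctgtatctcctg
Pvalb, chr15:78206401-78206650, minus strand: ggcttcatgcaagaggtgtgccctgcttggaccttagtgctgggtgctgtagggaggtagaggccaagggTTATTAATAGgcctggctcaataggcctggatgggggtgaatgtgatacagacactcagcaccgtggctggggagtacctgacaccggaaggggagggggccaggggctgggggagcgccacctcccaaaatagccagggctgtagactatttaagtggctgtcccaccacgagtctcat
Rbp4, chr19:38125322-38125571, minus strand: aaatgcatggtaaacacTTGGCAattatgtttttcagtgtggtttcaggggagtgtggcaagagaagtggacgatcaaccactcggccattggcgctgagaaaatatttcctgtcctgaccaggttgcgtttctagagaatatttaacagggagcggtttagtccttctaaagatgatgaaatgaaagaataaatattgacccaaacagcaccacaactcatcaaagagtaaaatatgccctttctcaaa

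The capitals mark the E-box CAGCTG, the MEF2 element, the CArG box bound by serum response factor and the NFI element TTGGCA, searched on both strands. In the sequences shown, the E-box, MEF2 element and CArG box were marked only for the muscle genes. Elements of NFI and PPARγ were marked only for Rbp4. The E-box begins 224 bases before the start of Myl1 and 221 bases before that of Acta1, whose CArG box begins 73 bases before it. Pgam2 holds an E-box and a MEF2 element in this window, Pvalb a MEF2 element, and Rbp4 the element TTGGCA. Of all 27025 windows of this length, 12.8% held the E-box, and of those of 9476 tested genes with a window, 11.8% did. It was in 59 of 239 windows of genes called higher (24.7%), in 48 of 319 windows of genes called lower (15.0%) and in 30 of 75 windows of muscle genes called higher (40.0%). A MEF2 element was in 3.01% of all windows, 1.75% of those of tested genes, 11.7% of those of genes called higher and 0.940% of those of genes called lower. The CArG box was in 1.40% of all windows, 1.25% of those of tested genes, 4.18% of those of genes called higher, 1.57% of those of genes called lower and 5.33% of those of muscle genes called higher. The element TTGGCA was in 12.5% of all windows, 9.99% of those of tested genes, 16.3% of those called higher and 13.8% of those called lower. It was in 22.7% of the windows of muscle genes called higher and 12% of those of adipocyte genes called lower, which held the E-box in 14% and a MEF2 element in none, against 18.7% with a MEF2 element for the muscle genes. The longer NFI palindrome (0.0407% of all windows) and the direct repeat bound by PPARγ with its partner RXR (0.0370%) were in no window of a called gene. The motifs were searched separately, so that TTGGCA may overlap another element. A match describes these letters only, and neither binding nor regulation was measured here.

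Matrix genes were called in both directions. Over all genes tested, 2.60% were called higher and 3.70% lower, and 34.3% and 29.4% were so by adjusted p-value alone. In each list of this paragraph, the share of members higher by adjusted p-value alone was near that of all genes. Of 23 collagens, 3 were called lower and none higher, while 12 were lower and 7 higher at an adjusted p-value under 0.05 alone. Col15a1, a basement membrane collagen, stood at 80.2, 76.5 and 74.4 FPKM with full-length NFIA and at 2.59, 0.566 and 0.733 FPKM with the mutant, and Col6a2 and Col6a1, chains of the collagen around adipocytes and muscle fibers, fell by 3.01 and 1.75. Col1a1 overlapped, at 45.0 to 65.9 FPKM and 64.6 to 97.6 FPKM. Of 36 elastic fiber genes and proteoglycans, 6 were called lower and 3 higher (12 and 14 at an adjusted p-value under 0.05 alone). Fmod, fibromodulin, stood at 28.9 to 34.5 FPKM against 0.146 to 0.283 FPKM, and Podn, podocan, at 19.7 to 23.2 FPKM against 0.0657 to 0.195 FPKM. Those that rose were Mfap5, Dcn and Postn. Mfap5, a microfibril protein, stood at 4.80 to 5.25 FPKM against 25.2 to 33.1 FPKM, with control cells at 4.20 to 5.93 FPKM. Dcn, decorin, stood at 192, 223 and 209 FPKM against 879, 581 and 614 FPKM, above the 114 to 140.3 FPKM of control cells. Without mutant replicate 1, Dcn and Postn, periostin, both came to 1.52 and were not called, which left 1 of these genes higher. Of 20 metalloproteinases and inhibitors, 3 were called lower (Mmp15, Timp3 and Adamts9) and none higher (11 and 6 at an adjusted p-value under 0.05 alone), while Mmp3 was too low to be tested.

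Of 15 Wnt ligands and antagonists, 1 was called higher and 1 lower, with a median of 0.32, and 7 were higher and 3 lower at an adjusted p-value under 0.05 alone. The shares over all genes tested, for this and the next lists, were 2.60% called higher and 3.70% lower. By adjusted p-value alone they were 34.3% and 29.4%. Sfrp1 fell from 27.7 ± 3.32 to 0.452 ± 0.0137 FPKM and Sfrp4 rose from 17.1 ± 1.29 to 88.4 ± 21.9 FPKM. Both encode secreted proteins that bind Wnt ligands. Of 26 genes of the IGF and TGF-β family, 1 was called higher and 2 lower, with a median of 0.44, and 14 were higher and 6 lower at an adjusted p-value under 0.05 alone. Igfbp3 and Igfbp4, which bind insulin-like growth factors, fell by 3.87 and 2.16, and Grem1, an antagonist of bone morphogenetic proteins, stood at 0.638, 0.711 and 1.76 FPKM with full-length NFIA and at 19.2, 26.6 and 28.6 FPKM with the mutant. Without mutant replicate 1, 2 genes of this list were called higher. Igf2, a growth factor of differentiating myoblasts, was not called at 38.3 to 73.8 FPKM against 125 to 156 FPKM. Of 19 markers of mesenchymal and adipocyte progenitors, Vcam1 was called lower and Peg3 higher (8 and 9 at an adjusted p-value under 0.05 alone), and Pdgfra overlapped at 9.40 to 10.3 FPKM and 7.76 to 12.1 FPKM. Dlk1 had no fragment in the 6 samples. Of 13 S100 genes, 2 were called lower and none higher (4 and 5 at an adjusted p-value under 0.05 alone). S100a8 fell from 78 ± 11.7 to 3.70 ± 1.72 FPKM and S100b from 7.18 ± 0.76 to 1.17 ± 0.421 FPKM.

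Interferon-stimulated genes were called higher in 9 of 43 cases and lower in none, with a median of 0.79, and 32 were higher and 6 lower at an adjusted p-value under 0.05 alone. Ifit3, an antiviral protein of this response, stood at 1.36, 1.43 and 1.36 FPKM with full-length NFIA and at 32.1, 19.4 and 16.4 FPKM with the mutant. Control cells held 4.17 to 4.78 FPKM, between these groups, and the difference of Ifit3 was 3.25 ± 0.188 (adjusted p = 1.71e-07). Ifit1 stood at 0.674 to 1.10 FPKM against 18.6 to 23.5 FPKM, and Isg15, a ubiquitin-like protein, at 4.17 to 5.10 FPKM against 16.8 to 28.5 FPKM. Without mutant replicate 1, 8 were called higher. Of 22 chemokine and cytokine genes, 4 were called higher and none lower, while 15 were higher and 3 lower at an adjusted p-value under 0.05 alone, and without mutant replicate 1, 5 were called higher. Il33, a nuclear cytokine, stood at 2.84 to 5.14 FPKM against 41.5 to 49.6 FPKM, above the 11 to 14.5 FPKM of control cells. Ccl11, the eosinophil chemokine eotaxin, stood at 1.06 to 1.36 FPKM against 7.32 to 12.1 FPKM, below the 35.8 to 42.2 FPKM of control cells.

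Of 49 genes of DNA replication and mitosis, 1 was called: Rrm2, a subunit of ribonucleotide reductase, rose from 25.3 ± 4.59 to 83.1 ± 11.3 FPKM. The list had a median of -0.08, with 6 genes higher and 8 lower at an adjusted p-value under 0.05 alone, and Mki67, a mark of cycling cells, overlapped at 1.75 to 3.80 FPKM and 1.54 to 2.39 FPKM. Of 13 CDK inhibitors, D cyclins and pocket proteins, 2 were called lower and none higher (4 and 6 at an adjusted p-value under 0.05 alone). Over all genes tested, 29.4% were lower and 34.3% higher by adjusted p-value alone. Cdkn1c and Cdkn2c, inhibitors of cyclin-dependent kinases, fell by 1.92 and 1.72, and Cdkn1a, the inhibitor p21 of cells that leave the cycle, was not called at 269 to 306 FPKM against 398 to 460.3 FPKM. None of the 4 NFI genes was called, and Nfib, Nfic and Nfix were lower at an adjusted p-value under 0.05 alone. Nfix stood at 50.9 to 55.4 FPKM with full-length NFIA, 15.6 to 19.0 FPKM with the mutant and 17.2 to 18.4 FPKM in control cells, a difference of -1.54 ± 0.0753 (adjusted p = 4.93e-08), just under 3-fold. None of 20 Hox genes was called, with 4 higher and 11 lower at an adjusted p-value under 0.05 alone, and none of 14 housekeeping genes, with 4 higher and 3 lower.

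Markers of macrophages, leukocytes and endothelial cells were low or at 0, and those of osteoblasts and chondrocytes were not. Of 16 macrophage and leukocyte markers, 3 reached the level for testing and none was called. By adjusted p-value under 0.05 alone, 2 were lower and 1 higher. The sum of the 16 was 14.7 to 16.9 FPKM with full-length NFIA and 13.9 to 17.6 FPKM with the mutant, most of it Cd68 and Cd14, and the defining genes Ptprc and Tyrobp had no fragment in any of the 6 samples. Of 12 endothelial markers, 2 were tested and none called, with sums of 7.13 to 7.92 FPKM and 4.71 to 5.56 FPKM, and Tie1, Emcn, Erg and Sox17 were at 0. By adjusted p-value under 0.05 alone, 1 was lower and 1 higher. Of 12 osteoblast and chondrocyte markers, 6 were tested and 2 called lower: Comp, a cartilage matrix protein, stood at 24.6 to 27.5 FPKM against 0.163 to 0.437 FPKM, and Alpl, alkaline phosphatase, at 4.54 to 5.79 FPKM against 0.294 to 0.406 FPKM. By adjusted p-value under 0.05 alone, 3 were lower and 3 higher. The sum of this list was 554.5 to 590.7 FPKM with full-length NFIA, 1156 to 1212 FPKM with the mutant and 2187 to 2500 FPKM in control cells, most of it Spp1, osteopontin, at 430.4 to 455 FPKM and 1041 to 1095 FPKM. Its part in the results was not tested.

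The same contrast was made before differentiation. At day 0, 112 of 12105 genes were called higher with the mutant (0.925%) and 136 lower (1.12%). Of the day 7 calls tested at both times, 58 of 244 genes called higher (23.8%) and 58 of 322 called lower (18%) were also called in that direction at day 0, which made up 53.2% and 47.9% of the day 0 calls in these genes. The introduced Nfia was then at 225 to 250.2 FPKM with full-length NFIA and at 397 to 423 FPKM with the mutant. Of the muscle genes, 23 of 161 were called higher at day 0 and 2 lower, and of the adipocyte genes, 6 of 127 were called lower and 1 higher. Myog stood at 1.77 to 2.15 FPKM against 15.4 to 17.9 FPKM, a difference of 2.54, and Myod1 at 17.5 to 18.3 FPKM against 40.0 to 42.9 FPKM, a difference of 1.18. The difference between day 7 and day 0 was -1.27 ± 0.223 for Myog (adjusted p = 0.000111) and -0.45 ± 0.196 for Myod1 (adjusted p = 0.0582). Cebpa stood at 34 to 42.1 FPKM against 14.7 to 17.2 FPKM at day 0 and Pparg at 12.9 to 16 FPKM against 8.61 to 9 FPKM, with differences of -1.23 and -0.62 that did not reach 3-fold.

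Tested directly at the same thresholds, the contrast at day 7 differed from that at day 0 upwards in 273 of 12408 genes (2.20%) and downwards in 397 (3.20%). These included 64 muscle genes upwards and 1 downwards, and 53 adipocyte genes downwards and 2 upwards. The contrast deepened by 1.53 ± 0.107 on the log2 scale for Pparg (adjusted p = 2.6e-09) and by 1.73 ± 0.195 for Cebpa (adjusted p = 8.72e-07). Acta1, in contrast, differed by 2.75 at day 0, when it stood at 1.37 to 1.74 FPKM against 15.3 to 16.7 FPKM, and its change between the times was -0.01 ± 0.116 (adjusted p = 0.922). Of the interferon-stimulated genes, 10 were upwards and none downwards. Ifit1 stood at 8.88 to 10.4 FPKM with full-length NFIA and 6.04 to 6.77 FPKM with the mutant at day 0, the opposite order to that at day 7, with a change of 4.06 ± 0.209 between the times (adjusted p = 6.16e-11). The DNA replication list had a median of -1.09 at day 0, with 3 of 50 genes called lower.

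**Figure D5:**
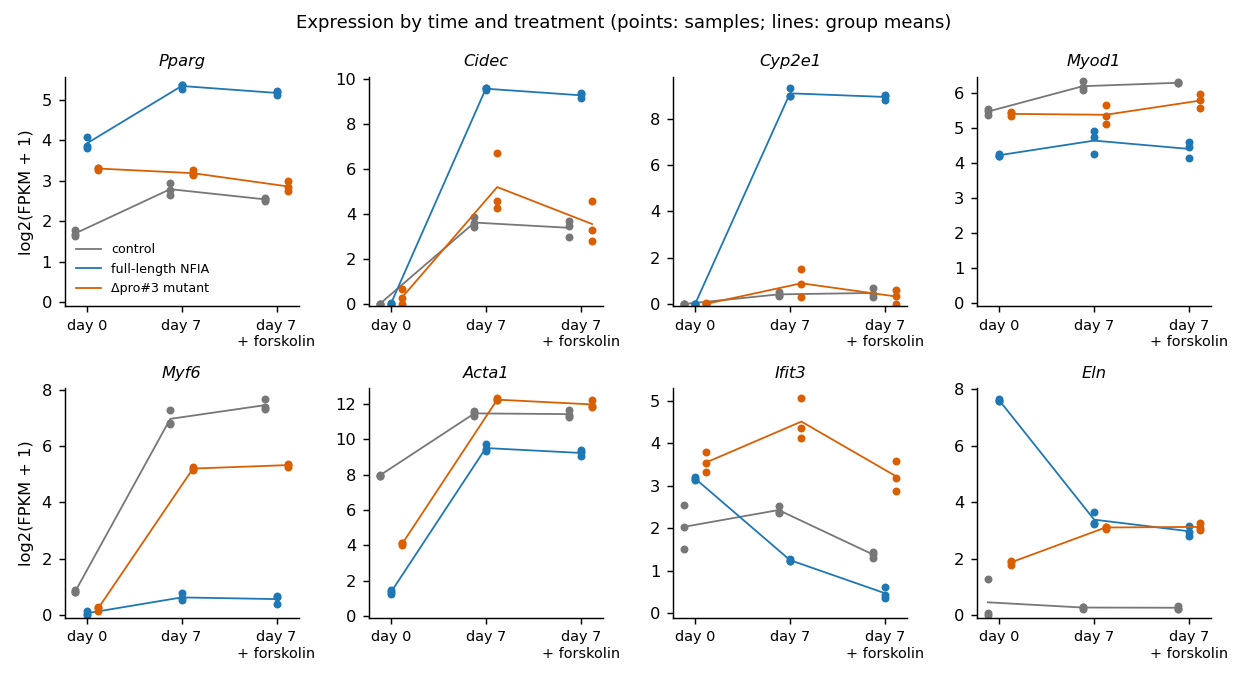
Expression as log2(FPKM + 1) (vertical axes) of 8 genes at day 0, at day 7 and at day 7 with forskolin, in control (gray), full-length NFIA (blue) and Δpro#3 mutant (orange) cells, with 1 point per sample and lines through the group means. Blue and orange lie further apart after day 0 than before for Pparg, Cidec and Cyp2e1, and are apart at day 0 for Eln and Myod1.

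Forskolin, which raises cyclic AMP, was given at 10 µM for 4 h to further samples of both groups at day 7. In these, 350 of 12121 genes were called higher with the mutant (2.89%) and 401 lower (3.31%), among them 99 of 192 muscle genes higher and 2 lower, and 62 of 152 adipocyte genes lower and 1 higher. Of the calls without forskolin tested in both, 256 of 318 higher (80.5%) and 338 of 446 lower (75.8%) were called here too. These were 74.2% and 85.4% of the forskolin calls in these genes. At the same thresholds, the contrast itself differed between the treatments in 23 of 12245 genes upwards (0.188%) and 22 downwards (0.180%). No muscle gene was among them, and 2 adipocyte genes were, both upwards. Cyp2e1 stood at 449 to 522 FPKM against 0 to 0.545 FPKM with forskolin, and Fabp4 at 10224 to 10849.5 FPKM against 386, 103 and 137 FPKM, where replicate 1 of the mutant was again the highest. Ucp1 was detected with forskolin, at 1.00 to 1.22 FPKM with full-length NFIA and 0.192 to 0.452 FPKM with the mutant, but was too low over the 9 samples to be tested. The introduced Nfia was at 497 to 594 FPKM with full-length NFIA and 262 to 344 FPKM with the mutant there.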

How the data were processed

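RNA-seq of polyadenylated RNA (stranded libraries) from C2C12 cells was used. Per the labels and the study's methods, the authors aligned reads to mm9 with STAR 2.5.3a, kept uniquely aligned reads, assigned fragments by strand to 24825 genes and deposited FPKM per sample, with replicates kept separate and no scaling between samples. The deposited FPKM were whole multiples of 1 fragment for 100% of the values (tolerance 0.01), so fragments per gene were recovered. Of the symbols, 26 had turned into dates and 2 occurred again. Groups and replicate numbers were taken from the labels.

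Values were compared on log2(FPKM + 1) with limma 3.58.1 in R 4.3.3 (1 mean per group, variance trend), fitted to the 9 samples at day 7 without forskolin over genes whose mean FPKM was at least 0.5. Contrasts between times or treatments were fitted to 18 samples. A gene was called at a Benjamini-Hochberg adjusted p under 0.05 and a change of FPKM + 1 over 3-fold. Python 3.11.15 with pandas 2.3.3 and matplotlib 3.10.9 was used for tables and plots. Chi-square values per gene compare fragments of 2 samples and cover counting error only. The steps were tested on simulated data. The genes named are the 8 largest rises and falls without overlap (mean FPKM of 1 or more), marked key genes, the 3 largest called rises and falls of each list, the 3 largest differences in each direction for each contrast between times or treatments, and genes singled out after their values were seen (Cd68, Cd14, Spp1 and the markers at 0). Members and lists were chosen with earlier results of these data known, and no list was tested as a set. Hmgcs1 and Snorc of the lists were not matched and not used here. Alternatives were a pseudocount of 0.1, median-ratio scaling, no filter, a minimum mean FPKM of 5, a fit of only the 6 samples, no variance trend, the replicate block, limma-voom on fragments and each sample left out.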

Additional observations from a re-analysis of the deposited data

Results flagged for a closer look

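The following genes differed by a test of the difference between 2 contrasts, and were the 3 largest in each direction. Between day 7 and day 0, the contrast of the mutant with full-length NFIA changed by -8.21 ± 0.272 on the log2 scale for Cyp2e1, -7.56 ± 0.104 for Rbp4 and -6.10 ± 0.144 for Ephx2 (limma, adjusted p of 3.11e-13, 7.54e-18 and 6.33e-15), all of which had under 1 FPKM in every sample of both groups at day 0. It changed by 5.47 ± 0.31 for Eln, the gene of elastin, by 4.76 ± 0.243 for Slpi, a secreted protease inhibitor, and by 4.57 ± 0.148 for Ckmt2 (adjusted p of 1.96e-10, 5.56e-11 and 2.38e-13). Eln stood at 191, 199.7 and 193 FPKM with full-length NFIA at day 0 and at 2.81, 2.42 and 2.66 FPKM with the mutant, whereas at day 7 it stood at 8.55, 11.5 and 8.46 FPKM against 7.74, 7.79 and 7.22 FPKM. Control cells held 0.17 to 0.221 FPKM at day 7. Slpi stood at 49.0 to 53.8 FPKM against 2.73 to 4.17 FPKM at day 0 and at 1.72 to 2.86 FPKM against 6.32 to 7.08 FPKM at day 7, so its direction turned.

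Between day 7 with and without forskolin, the contrast changed by -3.53 ± 0.139 for Nr4a3, a nuclear receptor induced by cyclic AMP, by -2.94 ± 0.121 for Tdo2, tryptophan dioxygenase, and by -2.52 ± 0.654 for Mir1938 (adjusted p of 1.09e-10, 1.46e-10 and 0.0112). It changed by 2.86 ± 0.382 for S100a8, by 2.54 ± 0.536 for Mir6392 and by 2.47 ± 0.162 for Gm6093 (adjusted p of 6.49e-05, 0.00298 and 3.75e-08). With forskolin, Nr4a3 stood at 46.5 to 51.1 FPKM with full-length NFIA and at 4.38 to 5.63 FPKM with the mutant, against 1.02 to 1.31 FPKM and 1.64 to 2.24 FPKM without it. Tdo2 stood at 9.85 to 12.1 FPKM against 0.0241 to 0.0414 FPKM with forskolin. Mir1938 and Mir6392 are short entries in libraries of polyadenylated RNA, so their FPKM counts fragments on those loci, not mature microRNA, and some mutant samples were at 0.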

How the results depend on the processing

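At day 7, 590 genes were called higher by limma-voom on fragments and 542 with a pseudocount of 0.1, against 320, while the 456 called lower became 677 and 628. A minimum mean FPKM of 5 gave 257 and 312. Median-ratio scaling gave 304 and 472, and turned 4233 higher and 3621 lower genes by adjusted p alone into 3881 and 3950. With each sample left out in turn, 307 to 330 were called higher and 436 to 478 lower. For the contrast between day 7 and day 0, a pseudocount of 0.1 gave 443 upwards against 273. For that with forskolin it gave 48 upwards and 45 downwards against 23 and 22. Leaving out samples in these contrasts, an alternative chosen after seeing the data, gave 259 to 291 and 383 to 418 for day 0, and 22 to 27 and 21 to 29 for forskolin. With the replicate block, 320 genes were called higher and 456 lower. At day 7 without forskolin, samples with the same number did not deviate together (r = 0.008, -0.137 and 0.029 over genes between both groups), so the numbers were not read as pairs. Whether samples of the same number were linked between times or treatments was not tested. The contrasts between times or treatments took them as separate, although Fabp4 was highest in mutant replicate 1 both with and without forskolin.

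For 147 named genes, 2008 of 2041 values under 14 alternatives kept their direction and call. Those that changed sign were not called. With samples left out, Tagln ranged from -0.17 to 0.079, Pdgfra from -0.26 to 0.033, Mki67 from -0.30 to 0.10 and Mir1938 from -0.12 to 0.82, and Mir1938 came to -0.090 by limma-voom and -0.29 with the pseudocount of 0.1. Calls were lost for Lpl and Myh10 (-1.50 and -1.55 without mutant replicate 2), Myh3 (1.49 without full-length replicate 2), Dcn and Postn (1.52 each) and Hp (1.02) without mutant replicate 1, and Hp with scaling (1.56) and without full-length replicate 1 or 3 (1.57 each). Calls were gained for Zfp423 (-2.49 and -2.18), Ppargc1a (-2.02 and -1.94), Adrb3 (-2.46 and -1.97), Ccl2 (2.56 and 2.12) and Gm6093 (5.29 and 3.69) by limma-voom and with the pseudocount of 0.1, for Nfix (-1.59) and Slpi (1.61) by limma-voom, and for Chrna1 (1.60 without full-length replicate 3), Acta2 and Igf2 (1.64 and 1.68 without full-length replicate 1). The causes were not tested. Genes with a mean under 0.5 FPKM were not tested at this depth.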
